A study of Mus musculus with 2 samples.

Results

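The nicotinic acetylcholine receptor of embryonic skeletal muscle and the proteins that gather it under the nerve ending were described with 7 genes, taken by symbol from the 27998 genes counted in single cells of mouse inter-limb somites. Chrna1, Chrnb1, Chrnd and Chrng encode the alpha, beta, delta and gamma subunits of the fetal receptor. Rapsn encodes rapsyn, the scaffold that binds the receptor from inside the cell, Musk the receptor tyrosine kinase that starts clustering, and Dok7 the adaptor that activates this kinase. The somites came from wild type embryos of strain C57BL/6 at 2 stages, E9.5 and later E11.5. Tissue of 3 embryos of an age was pooled into 1 droplet library. With 1 library per stage no difference could be tested, no p-value was computed, and stage and library cannot be told apart. Intervals below cover counting error only, at 95%.

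In developing muscle the receptor is a pentamer of 2 alpha subunits with beta, gamma and delta, and the gamma subunit is replaced by epsilon, encoded by Chrne, as junctions mature. The motor axon releases agrin (Agrn), which binds the co-receptor Lrp4 on the muscle surface and so activates Musk, and Dok7 and rapsyn act downstream to cluster receptors. Muscle-specific transcription of the subunit genes is known to depend on E-boxes, short motifs bound by the myogenic factors Myod1 and myogenin (Myog), and synaptic transcription of the epsilon gene on a motif known as the N-box.

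By the GENCODE M21 annotation of GRCm38 (mm10, the build of the files), Chrna1 lies at chr2:73563215-73580338 on the minus strand, Chrnb1 at chr11:69784036-69795943 on the minus strand, Musk at chr4:58285960-58374303 on the plus strand and Dok7 at chr5:35056766-35087839 on the plus strand. Chrnd (chr1:87190607-87200070) and Chrng (chr1:87204657-87212694) are neighbours on the plus strand, 4586 bases apart. Rapsn lies at chr2:91035620-91045729 on the plus strand and overlaps the noncoding gene Gm13778 on the other strand, which is not among the counted genes.

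RefSeq promoter windows (GRCm38.p6), which run from 250 bases before to 50 bases after the start of transcription, were matched for 5 of the 7 genes. They are shown for 3 subunit genes and Musk, each with 3 E-boxes, and for Chrne, the adult subunit gene that was almost unread here. Capitals mark E-boxes (CANNTG) and the N-box core (CCGGAA, searched on both strands), and each sequence is written 5′ to 3′ on the strand of the gene.
Chrna1, chr2:73580289-73580588, minus strand: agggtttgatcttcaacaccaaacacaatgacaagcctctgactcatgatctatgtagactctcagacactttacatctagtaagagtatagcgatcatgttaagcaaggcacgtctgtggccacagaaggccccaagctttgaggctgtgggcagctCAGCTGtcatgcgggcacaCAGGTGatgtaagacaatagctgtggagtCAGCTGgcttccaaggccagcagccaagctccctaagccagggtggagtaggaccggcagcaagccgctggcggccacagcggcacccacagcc
Chrng, chr1:87205561-87205860, plus strand: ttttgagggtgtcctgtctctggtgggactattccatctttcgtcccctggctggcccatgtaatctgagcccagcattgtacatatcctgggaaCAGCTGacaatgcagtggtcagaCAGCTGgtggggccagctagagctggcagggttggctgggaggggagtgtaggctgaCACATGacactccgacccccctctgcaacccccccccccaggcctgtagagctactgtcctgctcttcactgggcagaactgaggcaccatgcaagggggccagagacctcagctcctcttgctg
Chrnb1, chr11:69795888-69796187, minus strand: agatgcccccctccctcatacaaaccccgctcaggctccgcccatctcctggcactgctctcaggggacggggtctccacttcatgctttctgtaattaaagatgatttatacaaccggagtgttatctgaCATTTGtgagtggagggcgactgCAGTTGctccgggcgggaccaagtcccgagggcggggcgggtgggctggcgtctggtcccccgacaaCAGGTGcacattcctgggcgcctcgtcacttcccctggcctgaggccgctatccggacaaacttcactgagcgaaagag
Musk, chr4:58285712-58286011, plus strand: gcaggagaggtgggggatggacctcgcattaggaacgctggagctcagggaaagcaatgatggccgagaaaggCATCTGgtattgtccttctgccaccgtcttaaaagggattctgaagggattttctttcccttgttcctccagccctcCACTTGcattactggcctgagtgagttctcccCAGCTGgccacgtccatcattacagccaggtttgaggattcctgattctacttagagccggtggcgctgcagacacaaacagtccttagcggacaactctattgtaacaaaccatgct
Chrne, chr11:70619145-70619444, minus strand: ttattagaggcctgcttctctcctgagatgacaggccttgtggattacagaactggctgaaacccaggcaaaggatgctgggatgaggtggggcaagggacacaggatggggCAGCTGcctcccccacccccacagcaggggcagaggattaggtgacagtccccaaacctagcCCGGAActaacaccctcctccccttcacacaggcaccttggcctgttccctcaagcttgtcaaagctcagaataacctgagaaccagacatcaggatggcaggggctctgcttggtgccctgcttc

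The E-box form CAGCTG, which is its own reverse complement and is counted among CANNTG too, began at positions -92 and -44 from the start of Chrna1 and at -155 and -132 of Chrng. It occurred at -68 in Musk and at -138 in Chrne, and not in the windows of Chrnb1 or Dok7. Of 32851 promoter windows of this length, 16.3% held CAGCTG and 1.90% held it at least 2 times. Chrna1, Chrnb1, Chrng and Musk each held 3 E-boxes of any form, as 17.6% of all windows held at least 3. The first of 2 windows listed for Dok7 held 1 E-box and the other none. Of the windows examined, that of Chrne alone held CCGGAA, at -76, a motif found in 14.9% of all windows. The annotated span of Chrng begins before its RefSeq window, so this window lies inside the gene as GENCODE draws it. These matches describe letters and are not measured binding sites.

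Cells were sorted by UMIs, the molecules counted per gene. A cell with at least 5 UMIs of Acta1 (skeletal alpha-actin) entered the Acta1 gate, otherwise at least 2 of Myog placed it in the Myog gate, at least 2 of Myod1 in the Myod1 gate, and at least 1 of Pax7, the marker of muscle progenitors, in the Pax7 gate. Cells with at least 3 UMIs over 8 neural genes or at least 2 over 2 endothelial genes entered none of these. At E11.5 the Pax7, Myod1, Myog and Acta1 gates held 352, 194, 424 and 218 of 9595 cells, with medians of 16139, 16399, 17153 and 17104 UMIs per cell. Neurons, with at least 2 UMIs of both Elavl3 and Stmn2 and below the Acta1, Myog and Myod1 minimums, numbered 304 at a median of 10712 UMIs. Levels are UMIs of a gene per 1000000 UMIs of the gate (UPM), and are not divided by gene length, so levels of different genes are not compared.

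The gates matched their labels in the sums of the differentiated muscle and neuronal lists, but not in every list. A list of 7 muscle progenitor genes did not set the Pax7, Myod1 and Myog gates apart, at 2863, 3199 and 3044 UPM. It summed to 1296 UPM in the Acta1 gate and 145 in neurons. Of the 352 Pax7 cells, 219 had no UMI of Myod1, Myog or Acta1, and 179 had only 1 of Pax7. A list of 9 genes of differentiated muscle (among them Actc1, Mylpf, Ttn and the fusion genes Mymk and Mymx) summed to 815 UPM in the Pax7 gate, 832 in the Myod1 gate, 4891 in the Myog gate, 43515 in the Acta1 gate and 57.6 in neurons. Of these sums Tnnt1 alone made up 693 UPM in the Pax7 gate and 740 in the Myod1 gate. Markers of 6 neuronal genes summed to between 56.9 and 119 UPM in the muscle gates against 10574 in neurons, and all 6 were seen in each muscle gate. In the Acta1 gate these were 195 UMIs of Dcx, 131 of Tubb3, 55 of Nefm, 42 of Stmn2, 25 of Ina and 4 of Elavl3. Of the 5 tested, Dcx (4.68-fold), Ina (4.40-fold) and Stmn2 (3.69-fold) were at least 2-fold higher in the Acta1 than in the Myog gate and Nefm (0.421-fold) was lower. Their part in the results was not tested. From the Pax7 over the Myog to the Acta1 gate, 5 heart genes summed to 10.8, 66.9 and 3673 UPM, with Nppa and Nkx2-5 at 0 in the last. In the same order 6 neural progenitor genes summed to 107, 414 and 791 UPM and 7 mesenchymal genes to 461, 237 and 146. The part of these lists was not tested either. Blood genes stood out in the Myog gate at 2043 UPM and in neurons at 2125, against 48.3 in the Acta1 gate, and 3 Myog cells held 97.7% of the 16335 globin UMIs of their gate. Without those 3 cells, a setting added after seeing the data, the log2 ratio of Musk between the Acta1 and Myog gates was 0.99 in place of 1.01, just below 2-fold, and the other 2-fold calls of the 7 genes held. The calls of other genes were not recomputed without them. In the Acta1 gate 44 cells had under 5000 UMIs, against 17 in the Myog gate. Computed doublets made up between 6.60% and 10.1% of the cells of a muscle gate.

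Of the UMIs of each gene in the E11.5 cells, most lay in the 4 muscle gates, which together held 12.4% of cells and 16.6% of all UMIs. The share was 95.6% for Chrna1, 89.8% for Chrnb1, 98.0% for Chrnd, 97.1% for Chrng, 90.2% for Musk, 87.9% for Rapsn and 85.4% for Dok7. The gates were set without reading any of the 7 genes. By contrast the agrin receptor Lrp4 had 11.5% and the ligand gene Agrn 10.1% of their UMIs there, both below the share of all UMIs.

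**Figure D1:**
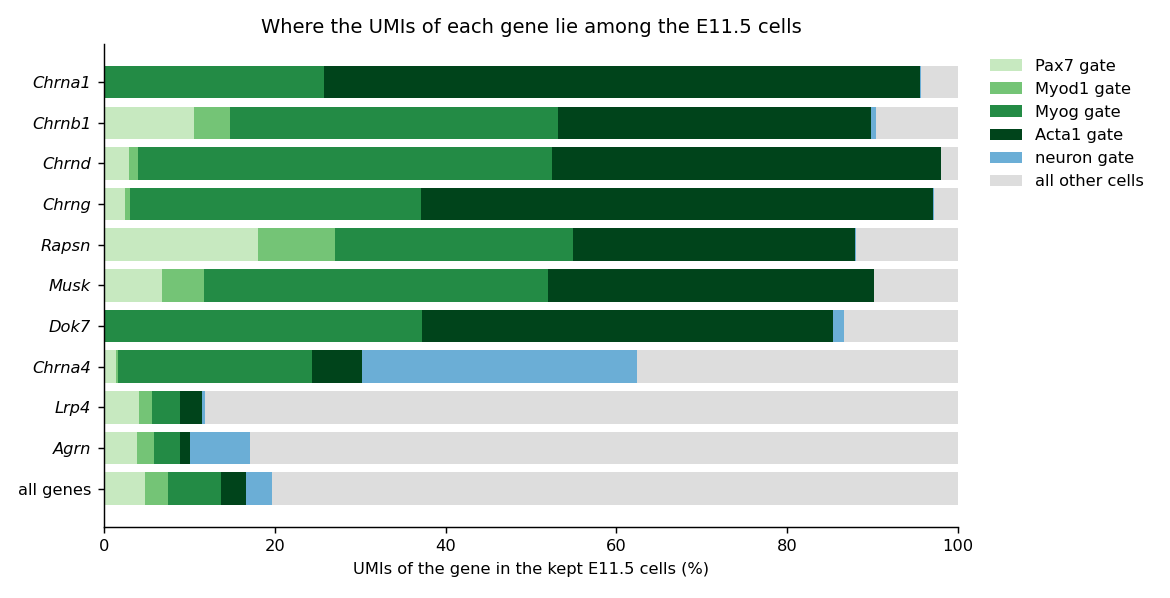
Share of the UMIs of each gene (horizontal axis, percent) that lay in each gate of the kept E11.5 cells, with the same split of all UMIs in the bottom bar. The 7 genes had 85.4% to 98.0% of their UMIs in the 4 muscle gates (greens), against 16.6% of all UMIs, while Lrp4 and Agrn had 11.5% and 10.1% there.

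Chrna1, the subunit that binds acetylcholine, was nearly absent in the Pax7 and Myod1 gates and highest in the Acta1 gate. Its level was 0.321 UPM in the Pax7 gate (2 UMIs), 0 in the Myod1 gate, 39.6 (35.4 to 44.2) in the Myog gate and 228 (213 to 243) in the Acta1 gate. The Myog gate was at least 46.9-fold above the Myod1 gate, taking the absent count there as 3 UMIs. The Acta1 gate was 5.75-fold (5.05 to 6.56) above the Myog gate, a log2 ratio of 2.52 that became 1.52 with gates set on cells thinned to 5000 UMIs and 1.91 with an Acta1 minimum of 20. A UMI of Chrna1 was seen in 0 of 194 Myod1 cells, which allows a share of up to 1.55% (3 counts of the total, as for each such limit below), in 25.9% of Myog cells and in 76.1% of Acta1 cells, with up to 17 UMIs in a cell.

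Chrng, the fetal gamma subunit, followed a similar course from a low but counted start. It stood at 3.05 UPM (1.84 to 4.77) in the Pax7 gate, 1.13 (0.307 to 2.88) in the Myod1 gate, 32.1 (28.3 to 36.3) in the Myog gate and 119 (109 to 131) in the Acta1 gate. The Myog gate was 10.5-fold (6.60 to 17.8) above the Pax7 gate, and the Acta1 gate 3.71-fold (3.18 to 4.34) above the Myog gate. The first of these was 3.40 on the log2 scale and became 4.34 with thinned gates. The Pax7 gate level, from 19 UMIs in 17 cells, exceeded the 0.117 UPM (0.0583 to 0.209) of the ungated remainder of 7501 cells.

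Chrnb1, the beta subunit, was counted in the Pax7 and Myod1 gates at a higher level than in neurons or endothelial cells. It was at 2.40 UPM (0.880 to 5.22) in cells gated on at least 2 UMIs of Pax3 with none of the later gate genes at their minimum, at 15.5 (9.84 to 23.3) in cells gated on Myf5, and at 13.3 (10.6 to 16.5) and 9.30 (6.40 to 13.1) in the Pax7 and Myod1 gates. It then stood at 37.8 (33.6 to 42.3) in the Myog gate and 76.0 (67.5 to 85.3) in the Acta1 gate, 4.06-fold (2.83 to 6.01) and 2.01-fold (1.71 to 2.37) above the gate before. The last ratio fell to 0.64 on the log2 scale with thinned gates, below 2-fold. Neurons had 1.01 UPM (4 UMIs), endothelial cells 0.698 (1 UMI) and the remainder 0.446.

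Chrnd, the delta subunit, had few UMIs, 101 in the whole set of E11.5 cells, of which 99 lay in the muscle gates. It had 3 UMIs in the Pax7 gate and 1 in the Myod1 gate, against 49 in the Myog gate (6.13 UPM, 4.53 to 8.10) and 46 in the Acta1 gate (12.1 UPM, 8.89 to 16.2). The Myog gate was 12.7-fold (4.10 to 63.7) above the Pax7 gate, and the Acta1 gate 1.98-fold (1.30 to 3.03) above the Myog gate. The last ratio, 0.99 on the log2 scale, became 0.55 with each cell counted equally. With an Acta1 minimum of 20 it was 0.59 (-0.08 to 1.23), an interval that spans no difference.

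Rapsn departed from the subunit genes in that it was high in the Pax7 and Myod1 gates already. Its level was 17.2 UPM (12.4 to 23.2) in Pax3 cells, 50.6 (39.8 to 63.4) in Myf5 cells, 62.8 (56.8 to 69.4) in the Pax7 gate, 54.6 (47.2 to 62.9) in the Myod1 gate, 75.5 (69.6 to 81.8) in the Myog gate and 188 (175 to 203) in the Acta1 gate. The Myog gate was only 1.20-fold (1.06 to 1.37) above the Pax7 gate, and the Acta1 gate 2.50-fold (2.24 to 2.79) above the Myog gate. With the Pax7 gate held to cells with a Myf5 UMI, the Myog gate differed from it by 0.051 on the log2 scale (-0.15 to 0.25), an interval that spans no difference. With the Pax7 gate held instead to cells without a UMI of Myod1, Myog or Acta1, the difference was 0.35 (0.13 to 0.58), clear of equality. A Rapsn UMI was found in 55.1% of Pax7 cells and 53.6% of Myod1 cells, while neurons had 0.658% (2 of 304) and endothelial cells 2.78% (2 of 72, median 17929 UMIs).

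Musk was low but counted in the Pax7 and Myod1 gates and higher with Myog. It had 14 UMIs in the Pax7 gate (2.25 UPM, 1.23 to 3.78), 10 in the Myod1 gate (2.82, 1.35 to 5.18), 82 in the Myog gate (10.3, 8.15 to 12.7) and 78 in the Acta1 gate (20.6, 16.3 to 25.7), and 0 in neurons, neural progenitors and endothelial cells. The Myog gate was 4.56-fold (2.57 to 8.70) above the Pax7 gate, and the Acta1 gate 2.01-fold (1.45 to 2.77) above the Myog gate. With gates set on counts thinned to 5000 UMIs per cell the last ratio fell to 0.42 on the log2 scale (-0.09 to 0.92) from 1.01.

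Dok7 was not detected in the Pax7, Myod1, Pax3 or Myf5 gates. No UMI of it was found in the 352 Pax7 cells, which allows a share of up to 0.852%, in the 194 Myod1 cells, or in the 165 Pax3 and 93 Myf5 cells. The Myog gate had 61 UMIs (7.63 UPM, 5.83 to 9.80) and the Acta1 gate 79 (20.9 UPM, 16.5 to 26.0), a ratio of 2.73 (1.93 to 3.88) that became 0.56 on the log2 scale, from 1.45, when each cell counted equally. Against a floor of 3 UMIs, the Myog gate was at least 15.8-fold above the Pax7 gate. Thus, in the Pax7 gate, Rapsn was found in 55.1% of cells, Chrnb1 in 19.3%, Chrng in 4.83% and Musk in 3.98%. In the Myod1 gate these shares were 53.6%, 14.9%, 2.06% and 5.15%. Chrna1, Chrnd and Dok7 were at or near the floor in both.

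**Figure D2:**
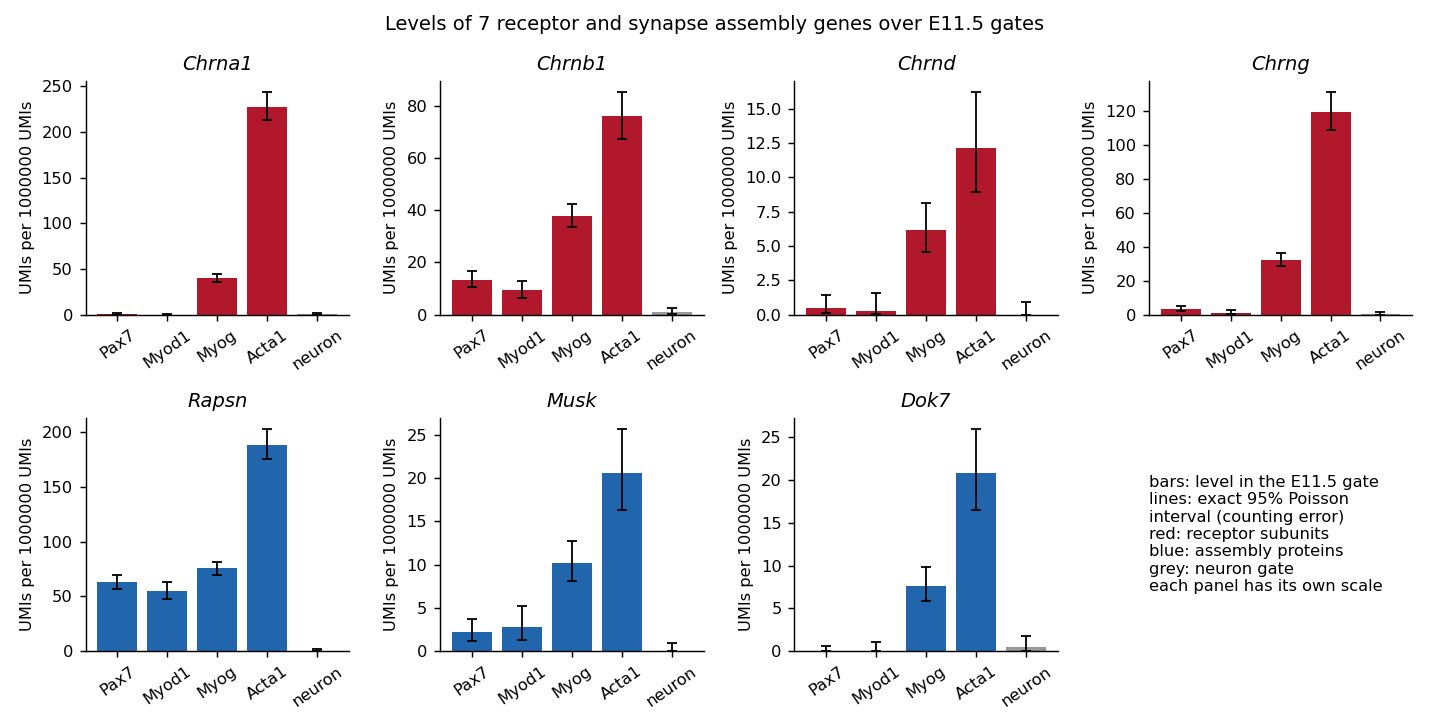
Level of each gene (vertical axis, UMIs per 1000000 UMIs, with its own scale in each panel) in the Pax7, Myod1, Myog and Acta1 gates and in neurons at E11.5, with exact Poisson intervals. All 7 bars are highest in the Acta1 gate, and Rapsn alone has tall bars in the Pax7 (62.8) and Myod1 (54.6) gates beside its Myog bar (75.5).

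Set against all genes with at least 20 UMIs in the gates compared, 6 of the 7 genes were at least 2-fold higher in the Myog than in the Pax7 gate (all but Rapsn), where 4.61% of 11615 genes were. None was 2-fold lower, where 5.92% of genes were. Between the Myog and Myod1 gates, 6 of 7 were again at least 2-fold higher (all but Rapsn, 1.38-fold, 1.17 to 1.63), against 5.05% of 11174 genes, and 0 were lower, against 3.58%. Between the Acta1 and Myog gates, 6 of 7 were at least 2-fold higher (all but Chrnd, at 1.98-fold), against 11.2% of 11341 genes, and 0 were lower, against 11.7%. Chrnb1 and Musk, each at 1.01 on the log2 scale, lay at the 2-fold line and fell below it under several other settings. Over the alternatives the number of the 7 genes at least 2-fold higher in the Acta1 gate ran from 3 (Chrna1, Chrng and Rapsn, with each cell counted equally) to 7, and was 4 with thinned gates or an Acta1 minimum of 20 UMIs and 5 with a minimum of 2. In both comparisons with the Myog gate on top it was 6 under each alternative run. The median log2 ratio of the 7 genes was 1.32 between the Acta1 and Myog gates, beside -0.14 over all genes, and 3.40 between the Myog and Pax7 gates, beside -0.13. Between the Myod1 and Pax7 gates no gene of the 5 with UMIs in both had an interval clear of equality, and Rapsn stood at 0.870-fold (0.728 to 1.04).

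**Figure D3:**
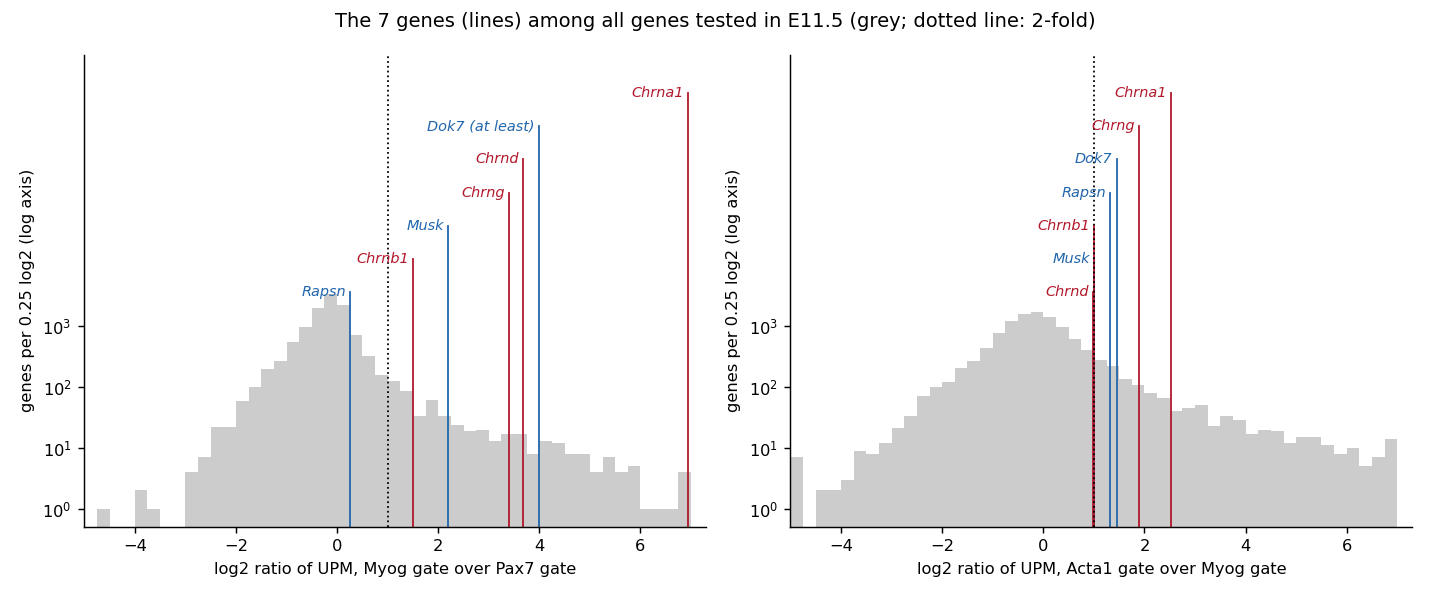
Histograms of the log2 ratio of UPM between gates over all genes tested (grey, genes per 0.25 log2 on a log axis, values beyond the range put in the end bins and genes at 0 in a gate not drawn), with the 7 genes as lines. Left, Myog over Pax7 gate: 6 lines lie right of the dotted 2-fold line and Rapsn (0.27) left of it. Right, Acta1 over Myog gate: Chrna1 (2.52) and Chrng (1.89) lie farthest right.

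The gates were cut more finely by the count of the gate gene per cell, which gives ranges of a count and not cell types. Within the Myog gate, Chrna1 stood at 1.79 UPM in 126 cells with 2 to 5 Myog UMIs, 4.17 in 73 cells with 6 to 15 and 71.1 (63.4 to 79.5) in 225 cells with 16 or more. It was then level within the Acta1 gate, at 233 UPM with 5 to 19 Acta1 UMIs, 230 with 20 to 79 and 224 with 80 or more. Chrng went from 9.73 to 52.1 UPM between the same Myog ranges and stood at 94.3, 126 and 128 over the Acta1 ranges. Chrnb1 was at 17.4 UPM with 6 to 15 Myog UMIs and 53.9 with 16 or more, then at 72.9 and 72.8 in the lower Acta1 ranges. So for these subunits the widest interval-clear difference within the Myog gate fell at its top range, with log2 ratios of 4.09 (2.95 to 5.55), 2.42 (1.64 to 3.32) and 1.64 (1.04 to 2.29) for Chrna1, Chrng and Chrnb1.

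The assembly genes were not alike over these ranges. Rapsn stood at 71.0 and 53.5 UPM in the lower Myog ranges, then at 85.2 with 16 or more Myog UMIs and 129, 176 and 223 over the Acta1 ranges, the last a log2 ratio of 0.34 (0.07 to 0.61) above the range before. Musk stood at 26.8 and 27.6 UPM in the lower Acta1 ranges and at 14.4 (9.55 to 20.8) with 80 or more, a log2 ratio of -0.94 (-1.77 to -0.10) from 28 against 25 UMIs. Dok7 was at 13.0 UPM in the top Myog range, 8.58 (8 UMIs) in the lowest Acta1 range and 24.3 and 25.1 in the others. Chrnd, with 14 to 17 UMIs per Acta1 range, showed no difference between these ranges beyond counting error. Cells of the top Acta1 range were also deeper, with a median of 22193 UMIs against 13292 in the lowest, and the part of depth in these differences was not tested.

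**Figure D4:**
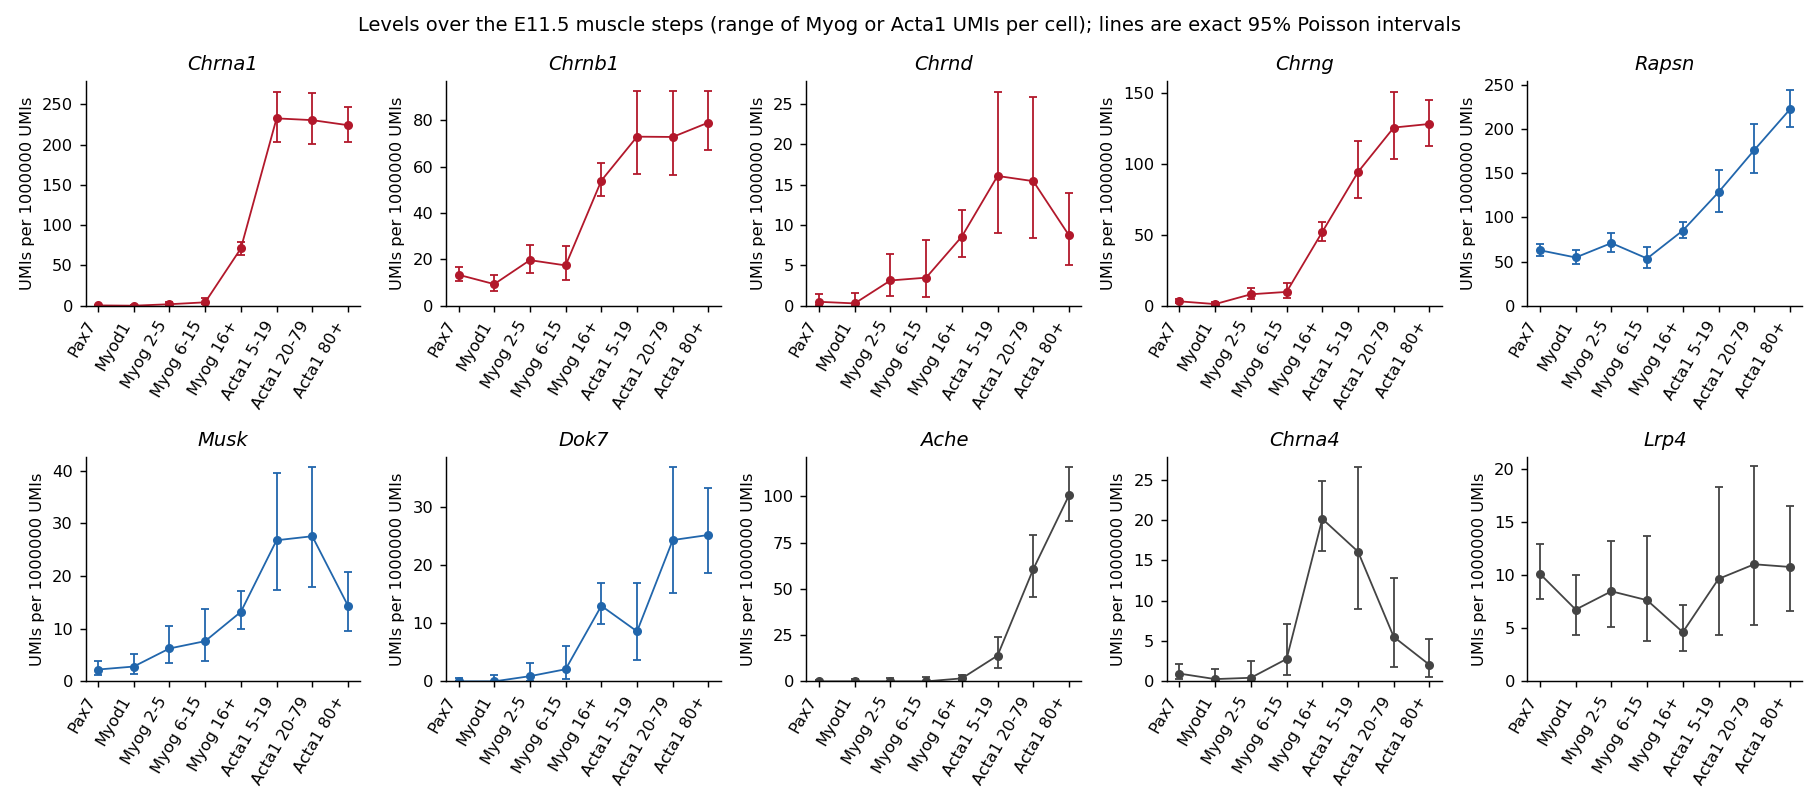
Levels (vertical axes, UMIs per 1000000 UMIs, own scale in each panel) over 8 ranges of the gate genes at E11.5, from the Pax7 gate to cells with 80 or more Acta1 UMIs, with exact Poisson intervals. Chrna1 reaches 233 in the lowest Acta1 range and stays level, Rapsn is highest in the last range (223), Musk is lower in the last range (14.4), Ache reaches 101 there, Chrna4 is highest (20.1) with 16 or more Myog UMIs, and Lrp4 is lowest (4.63) in that range.

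Detection per cell, like the level, was highest in the Acta1 gate for each of the 7 genes. In the Acta1 gate a UMI was seen in 76.1% of cells for Chrna1, 59.6% for Chrnb1, 16.5% for Chrnd, 71.6% for Chrng, 78.4% for Rapsn, 23.4% for Musk and 25.7% for Dok7. After thinning each cell to 5000 UMIs, which left 174 of 218 Acta1 cells, these were 61.5%, 29.9%, 6.32%, 41.4%, 62.6%, 8.62% and 12.1%. In neurons no gene of the 7 exceeded 1.32% of 304 cells unthinned. The neuron gate left out cells at a muscle minimum and its cells were shallower, so this share does not measure background. Without thinning but leaving out the 44 shallow cells, a setting chosen after seeing the data, Chrna1 was found in 86.8% and Rapsn in 90.8% of Acta1 cells. Among the 82 cells with 80 or more Acta1 UMIs, Rapsn was found in 97.6%, Chrng in 95.1% and Chrna1 in 92.7%. In the 78 cells of the lowest Acta1 range Chrna1 was found in 51.3%, though its level was 233 UPM there and 224 in the top range. Musk was found in 16.7% of the lowest range and 25.6% of the top range, at 26.8 and 14.4 UPM. So for these genes unthinned shares did not follow levels within the Acta1 gate. After thinning, Musk was found in 13.3% (5.05 to 26.8) of the lowest range and 4.88% (1.34 to 12.0) of the top range. Thinned shares of Chrna1 were 48.9% (33.7 to 64.2) and 67.1% (55.8 to 77.1). Thinning left 45 of the 78 cells of the lowest range and all 82 of the top range, and the part of depth was not tested.

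**Figure D5:**
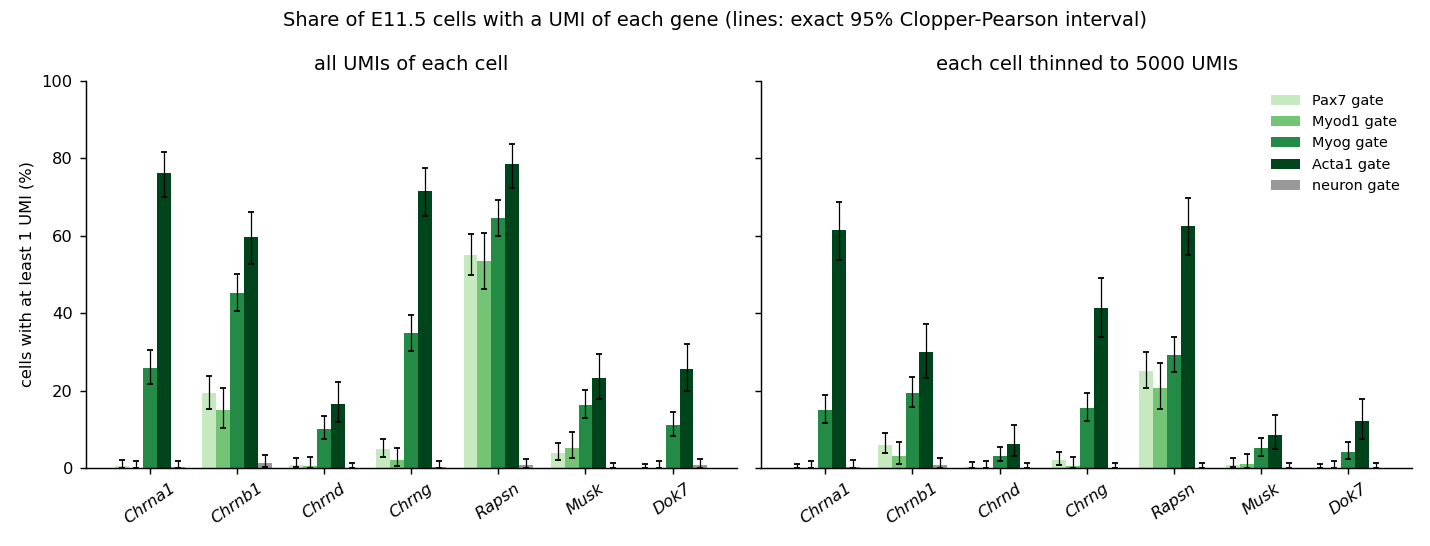
Share of E11.5 cells with at least 1 UMI of each gene (vertical axis, percent) in each gate, from all UMIs (left) and after thinning cells to 5000 UMIs (right), with exact Clopper-Pearson intervals. In both panels the Acta1 gate is highest for each gene, and Rapsn is found in 55.1% of Pax7 cells on the left and 25.1% on the right.

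Subunits were also counted together in single cells, as a receptor needs all of them. All 4 subunit genes were found in 0 of 352 Pax7 cells (up to 0.852%), 0 of 194 Myod1 cells, 11 of 424 Myog cells (2.59%, 1.30 to 4.59) and 25 of 218 Acta1 cells (11.5%, 7.56 to 16.5), a count that the sparse Chrnd limits. Alpha, beta and gamma were found together in 47 Myog cells (11.1%, 8.26 to 14.5) and 108 Acta1 cells (49.5%, 42.7 to 56.4), and in 59 of the 82 cells with 80 or more Acta1 UMIs (72.0%, 60.9 to 81.3). After thinning, the share with these 3 was 2.70% in the Myog gate and 9.20% in the Acta1 gate. Within the Acta1 ranges, thinned shares were 8.89% (2.48 to 21.2), 8.51% (2.37 to 20.4) and 9.76% (4.31 to 18.3), from 4 of 45, 4 of 47 and 8 of 82 cells. These intervals overlap, and the part of depth in the unthinned order of the ranges was not tested. A Rapsn UMI without any of Chrna1 occurred in 193 of 352 Pax7 cells (54.8%), 193 of 424 Myog cells (45.5%) and 24 of 218 Acta1 cells. After thinning, these shares of all cells were 25.1% of 346 Pax7, 24.1% of 407 Myog and 22.4% of 174 Acta1 cells. Thinned cells with a Rapsn UMI were not equally common, at 87 in the Pax7, 119 in the Myog and 109 in the Acta1 gate. Of these, 87, 98 and 39 had no UMI of Chrna1. The near-equal shares of all cells therefore do not show that the gates were alike.

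Mymx (myomixer), which encodes a membrane protein needed for myocyte fusion, divided the Myog gate into 227 cells with a UMI and 197 without, a split added after the data had been seen. In the Myog gate, cells with Mymx had Chrna1 at 72.6 against 2.65 UPM (log2 ratio 4.78, 3.88 to 5.85), Chrng at 53.7 against 7.96 (2.75, 2.20 to 3.36) and Dok7 at 13.5 against 1.06 (3.67, 2.23 to 5.59). Rapsn differed little, at 81.4 against 69.0 UPM (0.24, 0.00 to 0.48). The same cells had 3002 against 461 UPM of Myog itself, and the part of that difference was not tested. In the Acta1 gate, 129 cells with Mymx exceeded 89 without it for Chrna1 (261 against 155 UPM, log2 ratio 0.75, 0.51 to 1.00), Chrng (0.43, 0.12 to 0.75) and Chrnd (1.59, 0.34 to 3.11, from 40 against 6 UMIs). There Chrnb1 (0.06, -0.31 to 0.44), Musk (0.59, -0.19 to 1.43), Rapsn (-0.18, -0.41 to 0.05) and Dok7 (-0.04, -0.75 to 0.71) had intervals that span no difference. Median depth was 18280 UMIs with and 12473 without Mymx in the Acta1 gate. Cells with Mymx there also had 3192 against 1275 UPM of Myog and 4150 against 8930 UPM of Acta1. The part of these differences was not tested.

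Neurons had almost no UMIs of the 7 genes. In 304 neurons, which held 3.06% of all UMIs, there were 4 UMIs of Chrnb1, 2 each of Rapsn and Dok7, 1 each of Chrna1 and Chrng and 0 of Chrnd and Musk. Among 58 motor neurons, marked by Mnx1 or the vesicular acetylcholine transporter Slc18a3, 2 Chrnb1 UMIs were the only ones, and 0 of 58 cells allows a share of up to 5.17%. Neurons instead carried neuronal subunits, with Chrna3 at 40.7, Chrna4 at 32.9 and Chrnb2 at 23.9 UPM, and the ligand genes Agrn at 77.7 (69.3 to 86.9) and Nrg1, which encodes neuregulin 1, at 80.2 (71.7 to 89.5). In motor neurons Agrn stood at 73.0 and Nrg1 at 147 UPM. In the Acta1 gate Agrn was at 14.5 (10.9 to 18.9) and Nrg1 at 0.264 UPM (1 UMI). Agrn was not particular to neurons, which held 7.03% of its E11.5 UMIs. Neural progenitors held 7.97% of them, beside 3.52% of all UMIs, and the remainder 71.0%, beside 72.6%.

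Other receptor subunits in muscle were few. Chrne, the adult epsilon subunit, had 2 UMIs in the 9595 cells, neither in a muscle gate, so 0 of 218 Acta1 cells allows a share of up to 1.38%. Among 11 neuronal subunit genes only Chrna4 had 20 UMIs in the muscle gates compared. Chrna4 stood at 0.964 UPM in the Pax7 gate and 11.5 (9.27 to 14.1) in the Myog gate, 11.9-fold (5.28 to 33.3), found in 16.5% of Myog cells. It was lower in the Acta1 gate, at 6.33 UPM (4.06 to 9.43), and over the ranges stood at 20.1 with 16 or more Myog UMIs, then 16.1, 5.51 and 2.05, while Chrna1 stayed level over the Acta1 ranges.

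The remaining genes of the pathway were counted in lists of known roles. Of 10 genes of agrin signalling, 1 was at least 2-fold higher in the Acta1 than in the Myog gate (Macf1, a cytoskeletal linker, 2.31-fold, 2.13 to 2.50) and 1 lower (Crkl, an adaptor that binds Dok7, 0.480-fold, 0.215 to 0.968), near the 11.2% and 11.7% of all genes, with a list median of -0.24 on the log2 scale beside -0.14 for all genes. Between the Myog and Pax7 gates, 0 of these 10 passed 2-fold either way, where 4.61% of all genes were higher and 5.92% lower. Lrp4 stayed within 2-fold over the gates, at 10.1 (7.78 to 13.0), 6.76, 6.25 (4.64 to 8.24) and 10.6 UPM (7.54 to 14.4) from Pax7 to Acta1. Of 12 genes tested for the synaptic matrix and the dystrophin-linked scaffold, 6 were at least 2-fold higher in the Acta1 gate (among them Ache, Colq, Lamb2, Sntb1 and Dtna) and 3 lower (Lama5, Col13a1 and Sntb2), against 11.2% and 11.7% of all genes, with a list median of 1.19. Ache, the acetylcholinesterase gene, had 0 UMIs in the Pax7 and Myod1 gates and stood at 0.875 UPM in the Myog gate (7 UMIs) and 69.7 (61.5 to 78.6) in the Acta1 gate, while neurons had 26.2 UPM. Colq, its collagen tail, had 8.18 UPM in the Acta1 gate against 1.13 in the Myog gate.

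Of 6 genes tested for neuregulin signalling and synaptic transcription, 2 were at least 2-fold higher in the Acta1 than in the Myog gate and 1 lower. Over all genes 11.2% were higher and 11.7% lower. The receptors Erbb2 (4.57-fold, 3.23 to 6.54) and Erbb4 (5.01-fold, 3.06 to 8.45) were higher. The ETS factor gene Etv4 was lower (0.173-fold, 0.0542 to 0.426). Erbb3 stood at 59.0 and 85.5 UPM in the Myog and Acta1 gates, 1.45-fold, and Gabpa, a subunit of the factor that binds the N-box, at 23.9 and 21.4. Between the Myog and Pax7 gates only Erbb4 (2.07-fold, 0.931 to 5.07) and Etv5 (0.493-fold, 0.332 to 0.726) passed 2-fold in this list, and the interval of Erbb4 spans no difference. That is 1 higher and 1 lower of 7 tested there, where 4.61% and 5.92% of all genes were.

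At E9.5 the 7 genes were scarce, and so were differentiated cells. Of 9851 cells, 112 fell in the Pax7 gate, 0 in the Myod1 gate, 28 in the Myog gate and 7 in the Acta1 gate, against 911 Pax3 cells, 140 Myf5 cells, 57 neurons and 2143 neural progenitors with Sox2. In all cells there were 26 UMIs of Chrna1, 37 of Chrnb1, 5 of Chrnd, 21 of Chrng, 13 of Musk, 232 of Rapsn and 4 of Dok7, from 139643320 UMIs. In the 28 Myog cells Chrnb1 was found in 8 cells (10 UMIs), Rapsn in 6, Chrng in 5, Musk in 3, Chrnd in 2, Chrna1 in 1 and Dok7 in none. In the 7 Acta1 cells Chrng was found in 4, Chrna1 and Chrnb1 in 2 each, and Rapsn and Chrnd in 1 each. With so few cells, the floor of 3 UMIs was 5.14 UPM in the Myog gate, so most of these levels are not measured closely.

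Rapsn differed between the stages in the Pax7 gate and also in the later gates. It had 9 UMIs in the E9.5 Pax7 gate (3.69 UPM) against 391 at E11.5 (62.8 UPM), 17.0-fold, with a log2 ratio of 4.09 (3.15 to 5.23). Chrnb1 had 0 UMIs there at E9.5 against 83 at E11.5, at least 10.9-fold. Musk had 3 against 14 UMIs, 1.23 and 2.25 UPM, with an interval that spans no difference. In the Myog gate Rapsn stood at 10.3 UPM at E9.5 (6 UMIs) against 75.5, a log2 ratio of 2.88 (1.75 to 4.33). In the Acta1 gate it had 1 UMI at E9.5 (6.80 UPM) against 188 UPM. The Myog gate intervals of Chrna1, Chrnb1 and Chrng were also clear of equality, and those of Chrnd and Musk were not. The cells behind the Pax7 gate also differed, with the list of 7 muscle progenitor genes at 568 UPM at E9.5 against 2863 at E11.5, the differentiated list at 17.2 against 815 and 7 mesenchymal genes at 393 against 461. Of the 815 UPM, 693 were of Tnnt1 alone. The later gates differed too, with the differentiated list at 910 UPM at E9.5 against 4891 at E11.5 in the Myog gate. In the Acta1 gate it was at 10629 against 43515 UPM. The part of these list differences in the stage differences of Rapsn and the other genes was not tested. At E9.5 fewer Pax7 cells with a Rapsn UMI were counted, at 8.04% against 55.1%.

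Outside muscle, Rapsn had a low level in E9.5 neural progenitors, at 2.92 UPM (2.38 to 3.56, 99 UMIs in 93 of 2143 cells). This was above endothelial cells (0.255, 0.00644 to 1.42) and the remainder (0.805, 0.620 to 1.03) and near the Pax3 cells (2.30, 1.61 to 3.19) of the same library. At E11.5 neural progenitors had 2.63 UPM (1.36 to 4.59, 12 UMIs in 7 cells). That gate set no maximum of Acta1 or Myog. The 9 differentiated muscle genes summed to 614 UPM in it at E11.5, against 7.44 at E9.5. Its Rapsn UMIs at E11.5 can therefore not be placed outside muscle. None of the other 6 genes had more than 3 UMIs in the E9.5 neural progenitors.

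The genes whose profile over 11 classes of E11.5 cells was most like each member were listed by Pearson's r of log2(UPM + 10). The classes were the 8 ranges, neurons, neural progenitors and endothelial cells. Candidates were 11129 genes with at least 100 UMIs in these classes together, so Chrnd, with 99, could not be listed for another member. The list is a description over 11 points that share a library. Chrna1 was closest to Klhl41 (r = 0.997), a sarcomere protein gene, Gm12408 and Stac3, which encodes a protein of excitation-contraction coupling. Chrng was closest to Atp2a1 (0.997), the fast calcium pump, Cap2 and the giant filament gene Neb. Chrnb1 was closest to Arpp21 (0.992), Rbm20 and the filamin gene Flnc, and Rapsn to Tpm1 (0.995), Tnnt1 and Lgals1, contractile genes except for the last. Musk was closest to Tnni2 (0.969), Ccdc141 and Klhl31, Dok7 to genes that included Atp13a3 (0.980) and Gm28875, and Chrnd, with 99 UMIs, to Musk (0.989), Syne3 and Fstl4. Among the members themselves r was highest for Chrnd and Musk and for Chrna1 and Chrng (0.987), and lowest for Dok7 and Rapsn (0.713).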

How the data were processed

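Inter-limb somite cells of 2 stages were profiled in 1 library each. The deposited values are raw UMI counts per gene and barcode, made by the authors and not normalized, with Cell Ranger 3.0.1 and mm10 named in the submitters' processing notes. The labels state 10000 cells per stage, and the files hold 10121 barcodes for E9.5 and 10167 for E11.5, 30 of them shared. Cells with 200 to 6499 genes and under 15% mitochondrial UMIs were kept, 9851 and 9595, with medians of 12462 and 12479 UMIs. UMIs were summed per gate and divided by the gate total (UPM), with exact Poisson, Clopper-Pearson and conditional ratio intervals at 95%, computed in Python 3.11.15 with scipy 1.17.1. Where a gate had no UMI, 3 counts stood in. UMIs remove PCR copies, and the intervals cover counting error only. How strand was handled in counting is not given in the sources used here. Doublets were called with Scrublet in scanpy 1.11.5 at an expected rate of 0.08 (6.75% and 4.00% of barcodes) and kept. The ratio code was tested on simulated data. Genes were named by a fixed rule, namely the 7 members, the genes of lists of known roles, and the 3 genes most like each member, of which some are not reported here. Members, gates and lists were chosen with earlier results of these data known. Alternatives were other Acta1 minimums, thinned gates, removal of doublets, a minimum of 1000 genes, no exclusion of neural or endothelial cells, means over cells, another denominator, stricter Pax7 gates, and, added after seeing the data, leaving out shallow Acta1 or globin-rich Myog cells.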

Additional observations from a re-analysis of the deposited data

Results flagged for a closer look

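Barcodes that the cell filter left out, which the comparisons did not use, also held UMIs of the 7 genes. A level was listed where its whole counting interval lay above what 3 counts would give, which Musk did in neither library (0.869 UPM at E11.5). In the 270 left out at E9.5, Rapsn stood at 5.14 UPM against 1.66 in the kept cells, Chrng at 1.44 against 0.150, and Chrna1 and Chrnb1 at 0.823 each. In the 572 left out at E11.5, Rapsn stood at 23.5 UPM against 16.7 in the kept cells, Chrna1 at 10.3 against 9.53, Chrnb1 at 8.98 against 6.06, Chrng at 8.98 against 5.81, Dok7 at 1.45 against 1.26 and Chrnd at 1.30 against 0.778. Of these barcodes, 143 at E9.5 and 126 at E11.5 had more genes than the filter allowed.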

How the results depend on the processing

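Of 196 recomputed log2 ratios, 0 turned direction and 184 stayed within the counting interval of the reported value, among them all 63 between the Myog and Myod1 gates. In the Myod1 gate Chrna1 and Dok7 had 0 UMIs, so 3 counts stood in, and Chrnd had 1 UMI. Intervals there were wide, at 3.99 to 7.84 for Chrna1 and 1.90 to 9.78 for Chrnd. For these 3 genes, staying within the interval says little on how stable the ratio is. With gates set on counts thinned to 5000 UMIs, the ratio of the Acta1 to the Myog gate became 1.52 for Chrna1, 0.64 for Chrnb1, 1.33 for Chrng and 0.42 for Musk, and that of the Myog to the Pax7 gate 1.90 for Chrnb1 and 4.34 for Chrng. With each cell counted equally, the ratio of the Acta1 to the Myog gate became 0.73 for Chrnb1, 1.58 for Chrng and 0.56 for Dok7. An Acta1 minimum of 2 UMIs gave 2.73 for Chrna1 and a minimum of 20 gave 1.91. With a Myf5 UMI asked of Pax7 cells, the Myog to Pax7 ratio of Rapsn became 0.051. With Pax7 cells free of Myod1, Myog and Acta1 UMIs it was 0.35, within the interval of the reported 0.27. The cause of these moves was not tested. Of 63 recomputed shares of Acta1 cells with a UMI, 35 left the interval of the reported share. The settings changed the gate, the cells kept, the detection rule or the depth, and the part of each was not tested. No paired analysis was possible because each stage had 1 library. With 1 library of 3 pooled embryos per stage, spread between embryos was not measured, and stage cannot be told apart from library. Genes with under about 100 UMIs, Chrnd above all, were measured coarsely.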
